A study of Mus musculus with 12 samples.

Results

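Colitis evoked by dextran sulfate sodium (DSS) was examined in mice whose Tmem173 gene, which encodes the DNA-sensing adaptor STING, was floxed but intact. The libraries were the 3 Tmem173fl/fl and the 3 Tmem173fl/fl + DSS libraries of the series, 6 of 12 in all, and they were chosen by their sample labels. Each library was made from the colon RNA of 1 mouse aged 6 to 8 weeks on the C57BL/6N background. All 6 mice carried the floxed allele without Cre and had received 5 tamoxifen injections, so tamoxifen is common to both groups. Colitic mice drank 2.5% to 3% DSS for 7 days and then water for 1 day, and untreated mice drank water. The other 6 libraries of the series came from Tmem173iΔmye mice, which carry an inducible Cre in myeloid cells, and were not compared here. The sources name separate samples, so p-values measure the spread between 3 mice per group. The RNA came from bulk colon tissue, so fewer cells of a type and less RNA per cell cannot be told apart in any value below.

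The colon is lined by absorptive colonocytes that take up salt and water and by goblet cells that secrete mucus, both renewed from Lgr5-positive stem cells at the crypt base. Beneath the epithelium lie fibroblasts, vessels, nerves and immune cells, and a muscle wall surrounds them. DSS injures the epithelium, lets luminal bacteria reach the tissue and draws in neutrophils and monocytes, while fibroblasts, endothelium and surviving crypts take part in wound repair.

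Libraries held 13824940 to 18718915 counts. On the first principal component, with 57.7% of the variance, untreated libraries scored from -97.6 to -80.6 and colitic ones from 80.8 to 99.8. Of 24102 genes tested, 22.5% were called, which means an adjusted p (edgeR, Benjamini-Hochberg) under 0.05 with at least a 2-fold change, 14.9% as higher with DSS and 7.61% as lower. The median log2 fold change over all genes tested was 0.03. Scaling by library totals alone moved that median by 0.14 and raised the share of higher calls among all calls from 66.2% to 73.9%. Untreated replicate 3 had Xist at 100.4 FPKM and none of 4 Y-linked genes, while the other 5 libraries showed the reverse, and without it 4867 genes were called against 5422. RNA of the exocrine pancreas, a neighbouring organ, summed to 96.9, 43.5 and 3211 FPKM in untreated and 8913, 4366 and 571 FPKM in colitic libraries. The groups overlapped and 0 of 12 pancreas genes were called by edgeR, DESeq2 or limma, 0 of them with an unadjusted p under 0.05 by edgeR, but without untreated replicate 3 edgeR called 11 of 12 higher. The part of this RNA in the results was not tested. Epithelial identity was present in all 6 libraries, with Vil1, the actin bundler of microvilli, at 857 to 1147 CPM without DSS and 411 to 560 CPM with it (CPM were normalised with TMM factors).

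To follow programmes rather than top genes, 48 lists of cell type and pathway genes were read one by one. Among them, 35 of 35 type I interferon response genes and 28 of 32 cell cycle genes fell, and 24 of 24 endothelial genes and 28 of 30 matrix genes rose.

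**Figure D1:**
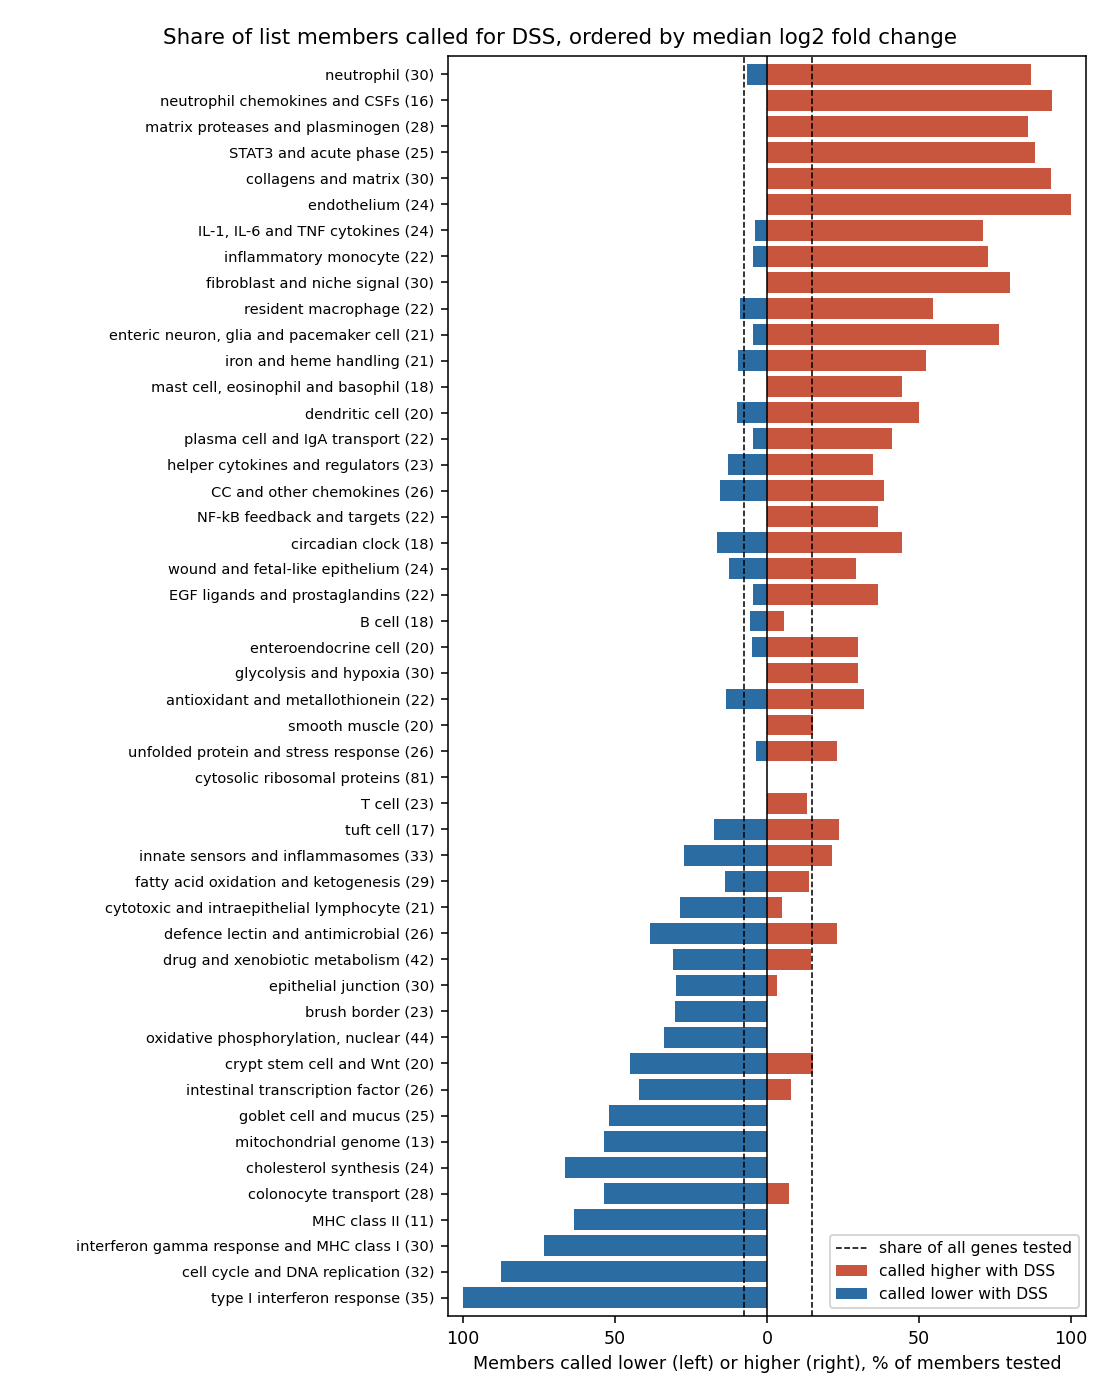
Share of the tested members of each of 48 gene lists called lower (blue, left) or higher (red, right) with DSS, in percent, with the number tested in brackets and dashed lines at the 7.61% and 14.9% of all genes tested. Lists are ordered by median log2 fold change, from type I interferon response at -2.57 to neutrophil at 5.12.

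Transport genes of absorptive colonocytes fell in large part, but not uniformly. Of 28 transport genes, 15 fell, 2 rose and 11 did not pass the test, with a median log2 fold change of -1.15. Slc26a3, the chloride-bicarbonate exchanger of the apical membrane, was at 661, 798 and 831 CPM without DSS and 124, 73.2 and 148 CPM with it. The colitic libraries were all below the untreated ones, and Slc26a3 was 6.63-fold lower (log2 fold change -2.73, SE 0.25, edgeR adjusted p = 3.25e-05). Atp12a, the colonic proton-potassium pump, was at 914, 257 and 431 CPM without DSS and 16.5, 14.8 and 8.07 CPM with it, which is 40.6-fold lower (log2 fold change -5.34, SE 0.49, edgeR adjusted p = 3.16e-05). Water channels followed, with Aqp8 at a log2 fold change of -2.47 and Aqp4 at -3.56, as did the carbonic anhydrase Car4 at -2.05. The sodium channel subunit Scnn1a was 5.67-fold lower. The subunits Scnn1b and Scnn1g were at 0.27 and -0.04, and neither passed the test. The 2 rises were in bile acid and carbonate handling. Slc51a, the alpha subunit of the basolateral bile acid exporter, was at 0.0751, 2.12 and 0.378 CPM without DSS and 25.8, 46.5 and 47.7 CPM with it, a 45.4-fold rise (log2 fold change 5.50, SE 0.65, edgeR adjusted p = 1.42e-04), and the carbonic anhydrase Car1 rose 3.1-fold to a mean of 1706 CPM.

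Structural genes of the epithelium that were called mostly fell. In the brush border list 7 of 23 genes fell and 0 rose, led by the membrane mucin Muc3 at -1.92, while Anpep, an aminopeptidase of the microvillus, was at 0.60 and did not pass. The junction list held 9 falls among 30 genes, including E-cadherin (Cdh1, -1.26), Epcam (-1.21) and keratin 8 (Krt8, -1.22), whereas the scaffold Tjp1 was at -0.35 without passing. Its 1 rise was Cldn1, a sealing claudin, at 0.751, 0.796 and 1.32 CPM without DSS and 6.64, 6.39 and 8.78 CPM with it. All colitic values of Cldn1 lay above all untreated ones (log2 fold change 2.90, SE 0.33, edgeR adjusted p = 1.01e-04). The junction count depended on single libraries, with 5 falls and 2 rises without DSS replicate 2 and 15 falls without DSS replicate 3, and for the brush border 11 without DSS replicate 3.

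Goblet cell genes differed among secreted products. Clca1, a mucus-processing protease, was at 8459, 4883 and 4002 CPM without DSS and 450.4, 224 and 577 CPM with it, 13.9-fold lower (log2 fold change -3.79, SE 0.39, edgeR adjusted p = 6.40e-05). Muc2, the gel-forming mucin itself, was at 8292, 17650 and 8726 CPM without DSS and 6033, 6505 and 10040 CPM with it, with overlapping groups and an adjusted p of 0.149 by edgeR, and the trefoil peptide Tff3 was at a log2 fold change of -0.47, also short of the test. In all, 13 of 25 members fell and 0 rose. The falls took in the mucus-binding Fcgbp (-1.65), the disulfide isomerase Agr2 (-1.68), the bestrophin channel Best2 (-2.08) and Atoh1 (-1.26), the factor that commits progenitors to the secretory fate.

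At the crypt base, 9 of 20 stem cell and Wnt genes fell and 3 rose, the rises being close to the 14.9% of all genes tested. Lgr5, the R-spondin receptor that marks stem cells, was at 5.03, 14.6 and 15.7 CPM without DSS and 1.41, 0.594 and 0.708 CPM with it. Its groups did not overlap (log2 fold change -3.70, SE 0.49, edgeR adjusted p = 3.10e-04). Ascl2, a transcription factor of the same cells, fell by 3.96 and the Wnt feedback gene Axin2 by 2.44 on the log2 scale, while Nkd1, another Wnt feedback gene, rose by 1.62, Smoc2 by 1.45 and Msi1 by 2.11. Proliferation genes moved together. Of 32 cell cycle genes, 28 fell and 0 rose, with a median of -1.60, and the summed level of the list was 450, 477 and 549 FPKM without DSS against 184, 196 and 142 FPKM with it. Mki67, the proliferation marker, fell by 1.81, Top2a, the topoisomerase of replicating DNA, by 2.44 and the spindle checkpoint kinase Bub1 by 2.54.

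Rare secretory cells showed opposite changes within 1 lineage. Insl5, a peptide hormone of enteroendocrine L cells of the distal colon, was at 43.6, 45.1 and 68.7 CPM without DSS and 3.54, 2.43 and 3.04 CPM with it, 17.5-fold lower (log2 fold change -4.13, SE 0.24, edgeR adjusted p = 2.41e-06). Chga, a granule protein of endocrine cells, was at 25.5, 33.5 and 27.7 CPM without DSS and 64.6, 70.3 and 94.7 CPM with it, 2.65-fold higher (log2 fold change 1.40, SE 0.18, edgeR adjusted p = 2.16e-04). Somatostatin (Sst, 1.67) and neurotensin (Nts, 3.30) also rose, while peptide YY (Pyy) was at -0.92 and glucagon (Gcg) at -0.31 without passing. Of 20 endocrine genes, 6 rose and 1 fell, with 2 falls without untreated replicate 2 or 3 and 3 without DSS replicate 3. In the tuft cell list 4 of 17 rose and 3 fell, the largest rise being 2.10 for the cyclooxygenase Ptgs1 and the largest fall -2.08 for Rgs13, and the taste channel Trpm5, at -1.12, missed the fold threshold without DSS replicate 2 (-0.997) or untreated replicate 2 (-0.943).

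**Figure D2:**
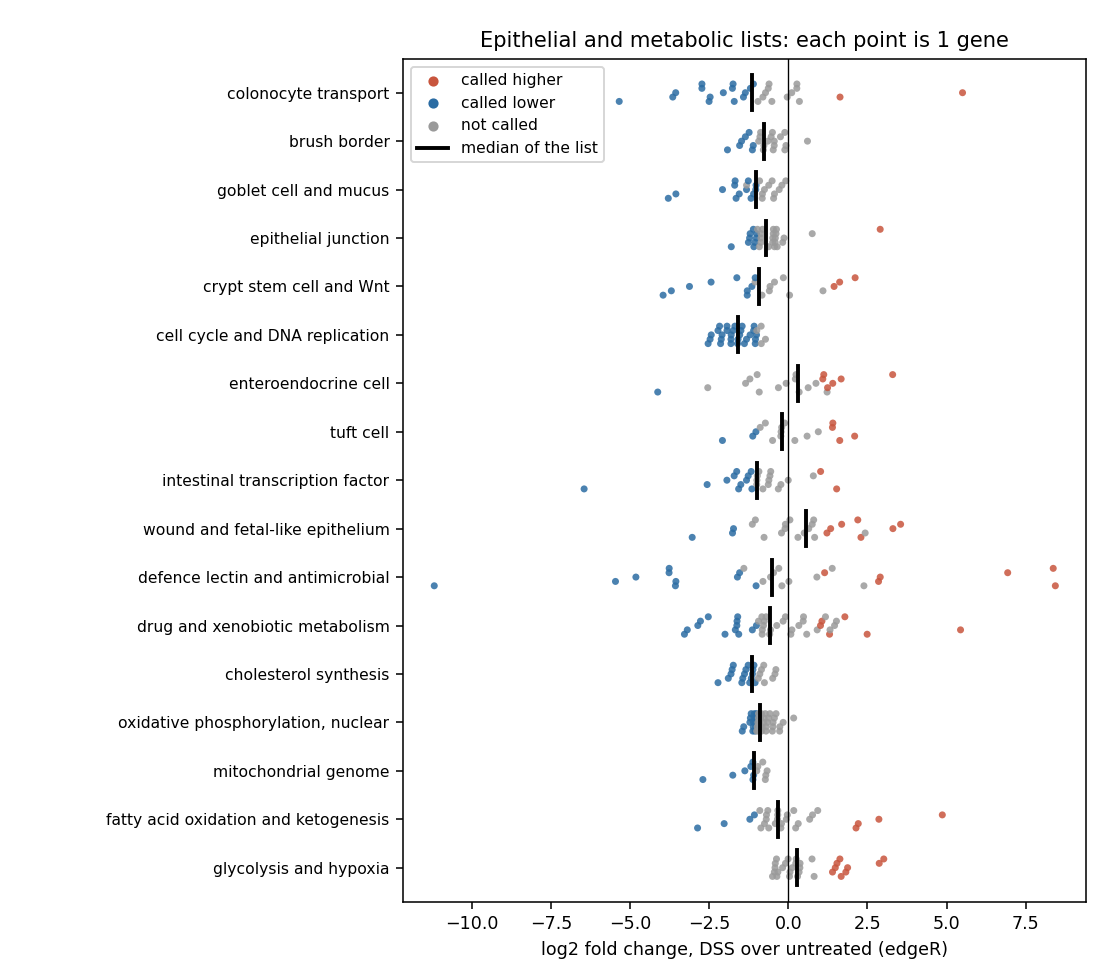
Log2 fold change of each member (1 point per gene) of 17 epithelial and metabolic lists, DSS over untreated, coloured by call, with the median of the list as a black bar. Cell cycle genes lie wholly below 0, and defence genes range from -11.19 for Mptx1 to 8.44 for Lcn2.

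Transcription factors of the intestine were reduced in part, with 11 of 26 lower and 2 higher. No rise was left without untreated replicate 1 or DSS replicate 3, and 1 without untreated replicate 3 or DSS replicate 1. Limma and a fit of all 12 libraries also gave 0 rises, and DESeq2 gave 1. Hoxb13, a homeobox gene of the hindgut, was at 249.8, 137 and 191 CPM without DSS and 5.12, 0.743 and 0.637 CPM with it. Colitic values were all below untreated ones, 87.6-fold by the fit (log2 fold change -6.45, SE 0.67, edgeR adjusted p = 6.56e-05). The pioneer factor Foxa2 fell by 2.57 and Hnf4a by 1.32, while Cdx2, a master regulator of intestinal fate, was at -0.61 and did not pass the test.

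Hox genes mark position along the body axis, and a list of 15 of them, from Hoxb6 to the group 13 genes, gave 6 rises and 3 falls. Besides Hoxb13, the group 13 gene Hoxa13 was at 78.4, 73.1 and 76.6 CPM without DSS and 26, 18 and 19.3 CPM with it, a fall of 1.85 on the log2 scale. Hoxb6 was at 1.65, 7.96 and 1.76 CPM without DSS and 30.2, 25.8 and 34.3 CPM with it, 7.89-fold higher (log2 fold change 2.98, SE 0.51, edgeR adjusted p = 0.00142), and Hoxb7 and Hoxb8 rose by 2.69 and 2.39. Among untreated libraries, replicate 2 was the highest for Hoxb6, and it was also the highest for Slc51a and Car1 above. The position along the colon of the tissue used for RNA was not given in the sources used here, and its part in these results was not tested.

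Of 42 genes of drug and xenobiotic metabolism, 13 fell, against 7.61% of all genes tested, and 6 (14.3%) rose, close to the 14.9% of all genes tested. Adh1, an alcohol dehydrogenase that also acts on retinol, was at 549, 444 and 432 CPM without DSS and 66.9, 67.5 and 73.4 CPM with it, 6.85-fold lower (log2 fold change -2.78, SE 0.16, edgeR adjusted p = 2.09e-06). Sulfotransferase Sult1a1 fell by 2.53 and glutathione transferase Gstm3 by 3.19. Members of 1 cytochrome cluster parted, since Cyp2c68 fell by 3.28 while Cyp2c66 rose by 5.44 from a mean of 0.11 to 5.22 CPM. Reads of these near-identical genes may be shared in counting. Cyp2d26 rose by 2.49 and the bilirubin-conjugating Ugt1a1 by 1.79.

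Antimicrobial genes moved in both directions, with different effectors lower and higher. Of 26 genes, 10 fell and 6 rose. Mptx1, a mucosal pentraxin, was at 1364, 185 and 484 CPM without DSS and 0.338, 0.446 and 0 CPM with it. Ang4, an antibacterial ribonuclease, was at 141, 42.1 and 33.8 CPM without DSS and 1.29, 0.396 and 3.47 CPM with it, and Nox1, the superoxide-producing oxidase of colonocytes, fell by 4.82. Reg3b, a bactericidal C-type lectin, was at 0, 5.58 and 7.24 CPM without DSS and 1707, 1369 and 1223 CPM with it, so no untreated library came near the lowest colitic one (log2 fold change 8.37, SE 0.98, edgeR adjusted p = 1.36e-04). Its relative Reg3g rose 122-fold, and lipocalin 2 (Lcn2), which withholds iron from bacteria, rose 347-fold to 799 CPM. The nitric oxide synthase Nos2 rose by 2.90 and the protease inhibitor Slpi by 2.85. Pigr, the receptor that carries IgA across the epithelium, fell 3.05-fold.

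Genes used to mark wound-associated and fetal-like epithelium did not move as 1 set, with 7 of 24 higher and 3 lower. Il33, an alarmin, rose by 3.55, the urokinase receptor Plaur by 3.31 and clusterin (Clu) by 1.69. Ly6a, which encodes Sca-1 and is itself interferon-responsive, was at 1490, 613 and 1099 CPM without DSS and 343, 344 and 277 CPM with it, 3.32-fold lower (log2 fold change -1.73, SE 0.28, edgeR adjusted p = 0.00104). Anxa1 was at 0.05 and Krt7 at -0.09, neither past the test.

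All called genes of the respiratory chain and of sterol synthesis fell. Of 44 nuclear genes of oxidative phosphorylation, 15 fell and 0 rose at a median of -0.91, and 39 had colitic values wholly below untreated ones, against 23.1% of all genes tested. The ATP synthase subunit Atp5b was at 1823, 1803 and 1686 CPM without DSS and 789, 745 and 929.6 CPM with it (log2 fold change -1.11, SE 0.15, edgeR adjusted p = 3.37e-04). Of the 13 protein-coding genes of the mitochondrial genome, 7 fell, with summed levels of 25590, 34400 and 38110 FPKM in untreated and 15150, 13680 and 19480 FPKM in colitic libraries. Scaling by library totals alone left 5 nuclear and 4 mitochondrial calls. In cholesterol synthesis 16 of 24 genes fell and 0 rose. Hmgcs1, HMG-CoA synthase, was at 506, 389 and 543 CPM without DSS and 136, 136 and 159 CPM with it, 3.34-fold lower (log2 fold change -1.74, SE 0.17, edgeR adjusted p = 4.37e-05), and Idi1, an isomerase of the same pathway, fell by 2.22.

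Genes of fatty acid oxidation moved in both directions. The peroxisomal thiolase Acaa1b rose by 4.87 and Pdk4, which restrains pyruvate oxidation, by 2.14, while Acsm3, which activates medium-chain fatty acids, fell by 2.87 and the mitochondrial coactivator Ppargc1a by 2.03. Of 29 fatty acid oxidation and ketogenesis genes, 4 (13.8%) rose, close to the 14.9% of all genes tested, and 4 (13.8%) fell, against 7.61%. Glycolytic enzymes such as Aldoa (0.04) and Ldha (-0.44) did not pass, yet 9 of 30 genes in the glycolysis and hypoxia list rose and 0 fell. Pfkfb3, which makes the activator of phosphofructokinase, was at 24.9, 15.9 and 22 CPM without DSS and 126, 231 and 152 CPM with it (log2 fold change 3.02, SE 0.26, edgeR adjusted p = 1.86e-05). Slc16a3, the lactate exporter, rose by 2.87.

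Stress pathways were selective. Of 26 genes of the unfolded protein and integrated stress responses, 6 rose and 1 fell (2 fell without DSS replicate 2 or 3), the chaperone Hspa5 at -0.51 and the factor Ddit3 at 0.10 not passing. Slc7a11, the cystine importer, rose 11.2-fold and Ddit4, an mTORC1 inhibitor, by 2.45 on the log2 scale. Hmox1, which degrades heme, was at 6.83, 5.18 and 6.8 CPM without DSS and 173, 313 and 89.3 CPM with it and rose by 4.93. Beside it, the hemoglobin chain Hba-a1, from red blood cells, rose from 1.52 to 95.7 CPM, and 6 of 7 red blood cell genes rose. Of 21 iron and heme genes, 11 rose and 2 fell (1 fell without untreated replicate 1 or DSS replicate 2), and the rises included haptoglobin (Hp, 6.23), ceruloplasmin (Cp, 4.80), the hemoglobin scavenger receptor Cd163 (4.45) and the ferritin heavy chain Fth1 (1.94). The metallothionein Mt1 rose by 2.97, whereas Gpx2, an epithelial glutathione peroxidase, fell by 1.57. Clock genes shifted in both directions, with 8 of 18 higher and 3 lower. The repressor Nr1d1 rose by 2.91 and Per1 by 2.16, and Cry1 fell by 1.23. The time of day of tissue collection was not stated in the sources used here. Of 81 cytosolic ribosomal protein genes, 0 were called by edgeR, DESeq2 or limma at a median of -0.01, with 18 at an unadjusted p under 0.05 by edgeR. Library totals alone gave 2 rises, and edgeR called 5 rises without untreated replicate 1.

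Among the 48 lists, the type I interferon response was the one whose tested members all fell, 35 of 35, each without overlap between groups. Over all genes tested, 7.61% fell and 23.1% had colitic values wholly below untreated ones. Oas2, which senses double-stranded RNA, was at 341, 192 and 106 CPM without DSS and 10.3, 25.6 and 11.5 CPM with it, and Ifi44 at 214, 130.5 and 85.5 CPM without DSS and 5.17, 14.3 and 4.88 CPM with it. The lowest untreated library exceeded the highest colitic one for both. Their log2 fold changes were -3.75 and -4.12, with SEs of 0.47 and 0.47 and edgeR adjusted p-values of 2.09e-04 and 1.10e-04. Among the factors that switch these genes on, Irf7 was at 650.4, 371 and 239 CPM without DSS and 40.4, 101 and 47.1 CPM with it, and Stat2 fell by 2.04. Summed over the list, levels were 3207, 1749 and 1565 FPKM in untreated and 254, 497 and 261 FPKM in colitic libraries. Untreated replicate 1 was the highest library and DSS replicate 2 the highest of the colitic ones.

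The interferon-stimulated response element (ISRE), the DNA site through which interferon induces these genes, was sought as TTTC, 2 bases of any kind and TTTC, on both strands, in RefSeq promoters (GRCm38.p6, 250 bases before to 50 after each start). It was present in 15 of 24 list genes with a promoter in the table and in 60.7% of their promoters, against 3.26% for all genes tested, 5.84% for those called lower and 3.39% for those called higher. A match, in capitals with 10 bases on each side, is shown for each of 6 genes that fell (Ifit1 and Isg15 hold further matches), because the motif recurs upstream of these genes, and all read 5′ to 3′ along the gene:
Ifit1: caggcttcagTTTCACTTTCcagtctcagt
Isg15: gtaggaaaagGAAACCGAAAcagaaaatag
Oas1a: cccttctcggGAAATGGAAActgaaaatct
Oas3: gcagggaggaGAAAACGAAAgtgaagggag
Rsad2: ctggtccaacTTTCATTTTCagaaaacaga
Ddx60: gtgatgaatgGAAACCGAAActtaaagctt
The capitals of Isg15, Oas1a, Oas3 and Ddx60 hold the reverse complement of the motif. These windows lie in the promoters of Ifit1 at chr19:34640775-34640804 on the plus strand, Isg15 at chr4:156200871-156200900 on the minus strand, Oas1a at chr5:120907526-120907555 on the minus strand, Oas3 at chr5:120777715-120777744 on the minus strand, Rsad2 at chr12:26456553-26456582 on the minus strand and Ddx60 at chr8:61928024-61928053 on the plus strand. Their log2 fold changes were -3.48, -3.53, -2.72, -3.47, -3.13 and -3.19. A match is a description of letters and does not show binding.

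Interferon gamma targets and antigen presentation fell alongside. Of 30 genes, 22 fell and 0 rose. Tgtp1, a GTPase against vacuolar pathogens that has a near-identical copy (Tgtp2), was at 109.6, 57.1 and 100.1 CPM without DSS and 4.72, 14.1 and 2.9 CPM with it. Beta-2 microglobulin (B2m), the light chain of MHC class I, was at 2760, 2100 and 2595 CPM without DSS and 834, 1160 and 687 CPM with it (log2 fold change -1.48, SE 0.21, edgeR adjusted p = 4.90e-04), and the immunoproteasome subunit Psmb9 fell by 2.11, while the class I heavy chains H2-K1 and H2-D1 were at -0.83 and -0.30 without passing. In MHC class II, 7 of 11 genes fell, among them the invariant chain Cd74 (-1.46) and H2-Aa (-1.69). Leaving out 1 library gave 5 to 7 falls in this list, and library totals alone or limma gave 5. Ifng itself was at 2.33, 0.996 and 1.95 CPM without DSS and 0.113, 0.644 and 0 CPM with it, and its call (log2 fold change -2.65, SE 0.80, edgeR adjusted p = 0.0261) was lost without untreated replicate 1 (adjusted p = 0.0777), untreated replicate 3 (0.0794) or DSS replicate 1 (0.0790).

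Sensors of microbes moved in both directions. The gasdermin Gsdmc4, an epithelial pore-forming protein of a family of near-identical copies, was at 1072, 546 and 979 CPM without DSS and 85, 53.6 and 79.2 CPM with it, 11.9-fold lower (log2 fold change -3.58, SE 0.29, edgeR adjusted p = 1.46e-05). The epithelial inflammasome gene Nlrp6 fell by 1.69 and caspase 1 (Casp1) by 1.53, while Nlrp3, the inflammasome sensor of myeloid cells, was at 1.73, 1.13 and 1.51 CPM without DSS and 18.1, 15.8 and 13.3 CPM with it, 10.8-fold higher (log2 fold change 3.43, SE 0.26, edgeR adjusted p = 8.66e-06). Cgas (Mb21d1), the enzyme upstream of STING, fell by 1.43, and the downstream kinase Tbk1 and factor Irf3 were at -0.27 and -0.20 without passing. Tlr8, a sensor of RNA fragments, rose by 2.49, and Tlr3, the sensor of double-stranded RNA, fell by 1.37. Over 33 sensors, 9 fell and 7 rose.

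Chemoattractants of neutrophils and colony-stimulating factors rose nearly without exception, 15 of 16. Cxcl1 was at 0.3, 0.199 and 0.315 CPM without DSS and 101, 66.1 and 40.4 CPM with it, 248-fold higher (log2 fold change 7.96, SE 0.44, edgeR adjusted p = 1.69e-06). Cxcl2 rose 224-fold and Cxcl5 193-fold, and the groups did not overlap for either. Csf2ra, at 0.93, was the member that did not pass. Cxcl9, an interferon-induced chemokine that attracts T cells through CXCR3, was at 78.8, 47.4 and 75.4 CPM without DSS and 2.53, 17.7 and 3.96 CPM with it (log2 fold change -3.04, SE 0.59, edgeR adjusted p = 0.00285), and its relative Cxcl10 fell by 2.08. Ccl28, a mucosal chemokine for IgA-secreting cells, fell by 2.22, while Ccl2, the monocyte chemokine, rose by 4.22, the eosinophil chemokine Ccl11 by 3.66 and Cxcl13, which attracts B cells, by 4.50. In the wider chemokine list 10 of 26 rose and 4 fell.

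The kappa B site, bound by NF-kB, was sought as GGG, 2 bases of any kind and TTTCC, on both strands, and was present in 4 of 11 promoters of the neutrophil chemokine list, against 1.69% for all genes tested, 2% for those called higher and 2.06% for those called lower. One match each of the Cxcl cluster and of Il6, shown because these genes were among the largest rises, reads:
Cxcl1: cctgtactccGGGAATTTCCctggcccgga
Cxcl2: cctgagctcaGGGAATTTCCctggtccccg
Cxcl3: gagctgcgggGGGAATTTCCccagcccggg
Il6: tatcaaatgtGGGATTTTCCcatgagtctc
These windows lie in the promoters of Cxcl1 at chr5:90891164-90891193 on the plus strand, Cxcl2 at chr5:90903792-90903821 on the plus strand, Cxcl3 at chr5:90786018-90786047 on the plus strand and Il6 at chr5:30013060-30013089 on the plus strand. The matches shown for Cxcl1, Cxcl2 and Cxcl3 have the same capitals. Cxcl1 and Cxcl2 each hold 1 more match with other letters, which is not shown.

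Among 24 cytokines and receptors of the IL-1, IL-6 and TNF families, 17 rose and 1 fell. Il6 was at 0.0751, 0.0664 and 0.126 CPM without DSS and 40.3, 10.2 and 24.4 CPM with it. No untreated library had more than 3 counts of Il6, so the rise is at least 111-fold. Il11, made by stromal cells, was at 0.15, 0.531 and 0 CPM without DSS and 98.5, 27.9 and 164 CPM with it, 413-fold higher (log2 fold change 8.69, SE 0.86, edgeR adjusted p = 4.68e-05), and its colitic values spread widely. Oncostatin M (Osm) rose by 5.51, interleukin 1 beta (Il1b) by 2.93 and the IL-33 receptor Il1rl1 by 5.32. Tumour necrosis factor (Tnf) was at 0.86 with overlapping groups and did not pass. Il18bp, which neutralises interleukin 18, fell by 1.79. Of 22 NF-kB feedback and target genes, 8 rose, with Ier3 at 3.31 and Nfkbia, the inhibitor of NF-kB, 2.29-fold higher, but Tnfaip3 (A20) at 0.20 did not pass.

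In the STAT3 and acute phase list, 22 of 25 genes rose. Serpina3n, a serine protease inhibitor, was at 35.6, 29 and 32.9 CPM without DSS and 2157, 2380 and 2118 CPM with it, 68.3-fold higher (log2 fold change 6.09, SE 0.18, edgeR adjusted p = 2.35e-07). Serum amyloid Saa3 was at 6.46, 2.39 and 2.33 CPM without DSS and 1151, 2028 and 782 CPM with it (log2 fold change 8.48, SE 0.56, edgeR adjusted p = 4.39e-06). Socs3, the feedback inhibitor of STAT3, rose by 4.13 while Socs1, the inhibitor of interferon signalling, was at -0.77 without passing. Complement C3 rose 8.73-fold, and Cebpb and Cebpd, factors of the acute phase, by 3.45 and 3.15. Members of the Serpina3 family are near-identical and may share reads. A site for C/EBP factors, sought as TTGCNNAAT or TTGCGCAA on both strands, was present in 7 of 21 promoters of the list, against 2.03% for all genes tested, 2.68% for those called higher and 1.92% for those called lower. Matches are shown for 3 members, of which Saa1 did not pass the test at -0.30:
Saa3: ggtaagtgggATTATGCAAgatcaaacag
Saa2: tgtgctcccaTTGCACAATgagggaaaat
Saa1: tgtgctcccaTTGCACAATgagggagaat
These windows lie in the promoters of Saa3 at chr7:46715758-46715786 on the minus strand, Saa2 at chr7:46751640-46751668 on the plus strand and Saa1 at chr7:46743144-46743172 on the minus strand. The capitals of Saa1 and Saa2, near-identical genes whose reads may be shared, are the same, while Saa2 rose by 3.64 from a mean of 0.122 to 1.53 CPM. The STAT site TTCCNGGAA was present in 0 of those promoters.

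Among the 48 cell type and pathway lists, neutrophil genes had the largest median, 5.12, or 4.04 with genes at the detection floor (3 counts in each untreated library) set to their lower bound, and 26 of 30 rose. S100a9, a subunit of calprotectin, was at 0.0751, 0.0664 and 1.07 CPM without DSS and 170.1, 103 and 165 CPM with it, 338-fold higher (log2 fold change 8.40, SE 0.57, edgeR adjusted p = 5.06e-06). Mmp8, the neutrophil collagenase, was at the floor in untreated mice and at least 192-fold higher, and the chemokine receptor Cxcr2 at least 67.5-fold. Within the same list, Slfn4, which is interferon-inducible, was at 2142, 760.4 and 664 CPM without DSS and 93.9, 238 and 122 CPM with it, a fall of 2.97 on the log2 scale, and Cd177, which colon epithelium also expresses, fell by 1.47.

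Monocyte and macrophage genes rose in part. Of 22 monocyte genes, 16 rose and 1 fell, with Chil3, a chitinase-like protein of alternative activation, at 5.12 and thrombospondin 1 (Thbs1) at 3.64, while the monocyte receptor Ccr2 was at 22.8, 19.8 and 28.1 CPM without DSS and 27.9, 28.3 and 18.6 CPM with it, with overlapping groups. Plac8 fell by 1.39. Of 22 resident macrophage genes, 12 rose and 2 fell (1 fell without untreated replicate 3 or any 1 of the DSS libraries). The mannose receptor Mrc1 was at 21.9, 17.9 and 30.9 CPM without DSS and 220.4, 245 and 203 CPM with it, 9.46-fold higher (log2 fold change 3.24, SE 0.21, edgeR adjusted p = 3.89e-06), and Apoe rose 8.14-fold, yet Cx3cr1, the fractalkine receptor, was at -0.75 and Adgre1, which encodes F4/80, at 0.93, and neither was called. Dendritic cell genes gave 10 rises and 2 falls among 20, and 1 fall without untreated replicate 1, untreated replicate 3 or DSS replicate 1. Ccl22, a chemokine of mature dendritic cells, rose by 3.12, Ccr7, the receptor that guides them to lymph nodes, by 2.72 and Clec10a by 3.75, and Xcr1, which marks the cross-presenting subset, was 3.48-fold lower. Mast cell, eosinophil and basophil genes gave 8 rises among 18, led by histidine decarboxylase (Hdc, 4.54) and the IL-5 receptor Il5ra (4.24), whereas the mucosal mast cell protease Mcpt1 was at 0.16 and did not pass.

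Of 23 T cell genes, 3 rose, close to the 14.9% of all genes tested, and 0 fell, and the CD3 chain Cd3e was at 17.6, 13.9 and 13.5 CPM without DSS and 10.5, 16.1 and 6.09 CPM with it, with overlapping groups (log2 fold change -0.45, SE 0.31, edgeR adjusted p = 0.298). The IL-7 receptor Il7r rose by 2.45. The T cell list had 1 rise without untreated replicate 2 or 3, and 2 falls and 1 rise without DSS replicate 2. Cytotoxic genes fell in 6 of 21 cases and rose in 1. Granzyme B (Gzmb) was at 59.4, 42.9 and 44.1 CPM without DSS and 9.73, 15 and 8.14 CPM with it, 4.43-fold lower (log2 fold change -2.15, SE 0.24, edgeR adjusted p = 1.01e-04), and granzyme A (Gzma) and the granule protein Nkg7 fell by 1.74 and 1.79. Among 23 helper cytokines and regulators, 8 rose and 3 fell, a count that dropped to 4 rises without untreated replicate 2, DSS replicate 1 or DSS replicate 2 and to 5 without untreated replicate 3, with 1 fall without untreated replicate 1, untreated replicate 3 or DSS replicate 2. Foxp3, the factor of regulatory T cells, was at 0.451, 0.133 and 0.315 CPM without DSS and 6.13, 9.06 and 2.69 CPM with it (log2 fold change 4.31, SE 0.57, edgeR adjusted p = 2.87e-04). The subunits of IL-12 and IL-23 were scarce, with Il12a at 0.976, 0.199 and 0.189 CPM without DSS and 1.12, 0.99 and 0.425 CPM with it, Il12b at 0.17 and Il23a at -0.51 on the log2 scale. None of these 3 passed the test at this depth.

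Of 18 B cell genes 2 were called (4 rises without DSS replicate 3 and 2 without untreated replicate 1), with Cxcl13 as the 1 rise and the complement receptor Cr2 as the 1 fall (-1.45, with adjusted p-values of 0.0842, 0.0954 and 0.0532 by edgeR without untreated replicate 1, untreated replicate 3 and DSS replicate 1). The 1 rise and the 1 fall were each 5.56% of the B cell list, against 14.9% and 7.61% of all genes tested. Antibody genes differed by class. Igha, the constant region of IgA, was at 2351, 1594 and 1777 CPM without DSS and 3741, 5482 and 2068 CPM with it, and DSS replicate 3 lay inside the untreated range (log2 fold change 0.98, SE 0.31, edgeR adjusted p = 0.0321), so Igha missed the fold threshold. Ighg1 was at 14.6, 4.25 and 1.95 CPM without DSS and 72.6, 179 and 98.3 CPM with it, 17.1-fold higher (log2 fold change 4.09, SE 0.63, edgeR adjusted p = 7.09e-04), and Ighg2b and Ighg2c rose by 3.16 and 3.37. DSS replicate 2 was the highest of the 3 colitic libraries for each of these 4 genes. Of the 22 plasma cell genes, 9 rose and 1 fell, and leaving out 1 library gave from 6 rises (without untreated replicate 3) to 15 (without DSS replicate 3).

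**Figure D3:**
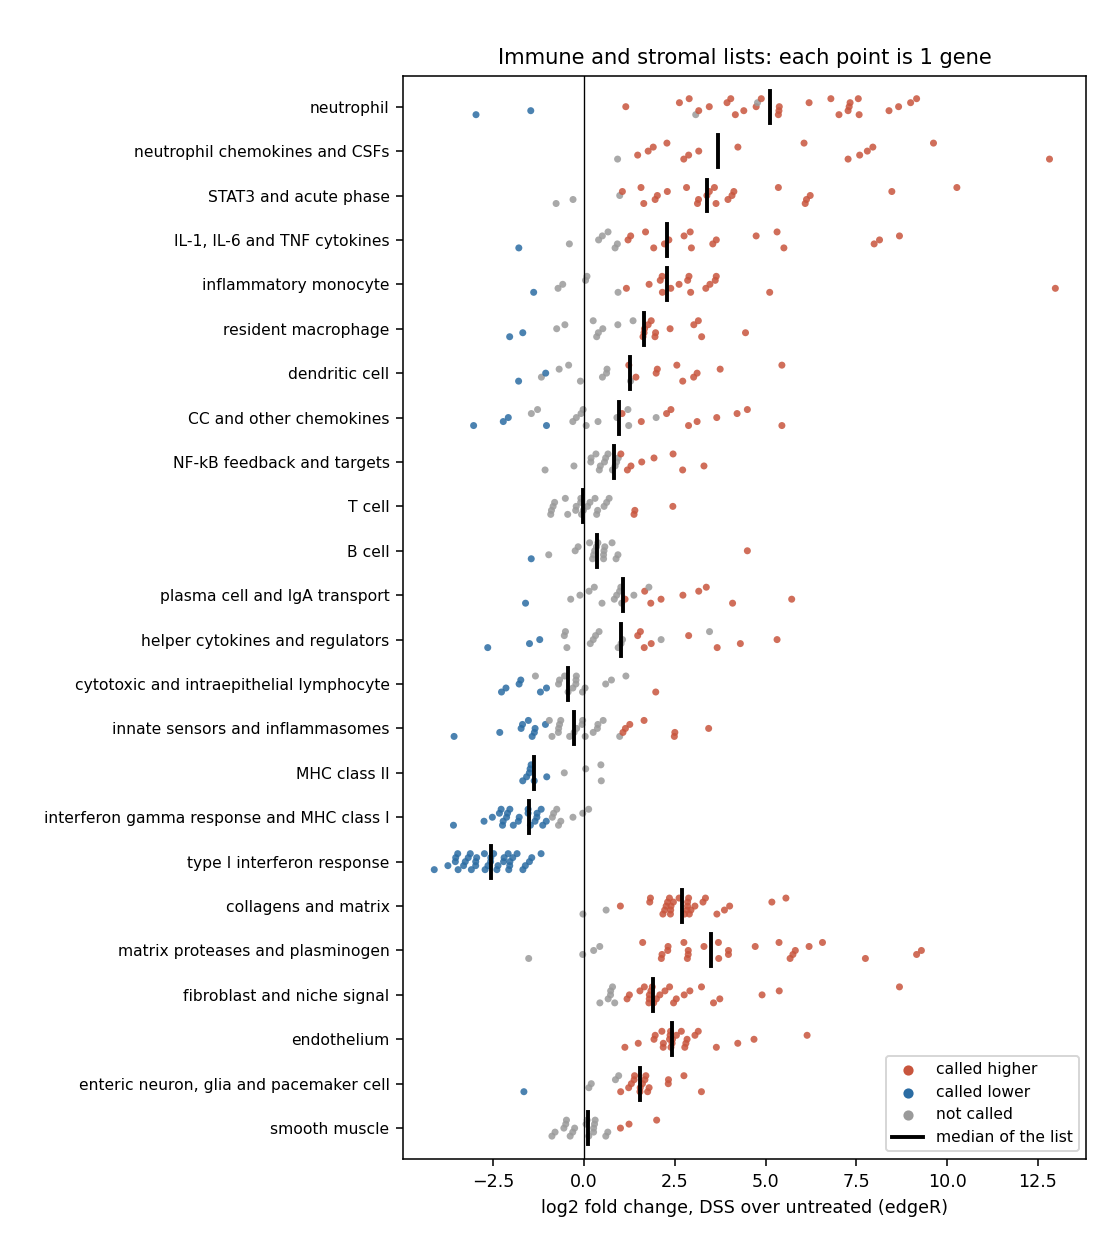
Log2 fold change of each member (1 point per gene) of 24 immune and stromal lists, DSS over untreated, coloured by call, with the median of the list as a black bar. The medians of the interferon lists, -2.57 and -1.51, lie below 0 and those of the matrix, protease, niche and endothelial lists above it, and the points furthest to the right, Csf3 and Marco, were at the detection floor in untreated mice, so their fitted values depend on the prior count.

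Growth factors of repair moved unevenly. Ereg, an EGF receptor ligand, was at 7.66, 5.58 and 6.93 CPM without DSS and 853, 278 and 957 CPM with it, 104-fold higher (log2 fold change 6.69, SE 0.47, edgeR adjusted p = 6.67e-06). Nrg1, a ligand of ERBB3, rose 41.9-fold and Epgn by 4.08 on the log2 scale, while amphiregulin (Areg) was at 58.2, 26.4 and 33.8 CPM without DSS and 28.2, 19 and 31.5 CPM with it, with overlapping groups. Transcripts of the prostaglandin-producing enzymes Ptgs2 (COX-2, 4.76) and Ptges (3.82) rose, and those of Hpgd, which degrades prostaglandins, fell by 1.58. Of 22 genes in this list, 8 rose and 1 fell.

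Matrix and vessel genes rose together. Of 30 collagen and matrix genes, 28 rose, at a median of 2.70, and the summed level went from 400 to 441 FPKM in untreated to 2664 to 3220 FPKM in colitic libraries. Lox, which crosslinks collagen, was at 5.18, 5.91 and 8.5 CPM without DSS and 342, 334 and 253 CPM with it, 47.2-fold higher (log2 fold change 5.56, SE 0.24, edgeR adjusted p = 6.08e-07). Col18a1, a basement membrane collagen, rose 36.1-fold, and the fibrillar Col1a1 and Col3a1 rose 6.83-fold and 7.48-fold. Proteases that cut matrix rose as well, 24 of 28. Mmp10, a stromelysin, was at 0.676, 0.863 and 0.693 CPM without DSS and 445, 527 and 445 CPM with it (log2 fold change 9.29, SE 0.22, edgeR adjusted p = 4.05e-08), Mmp3 rose 215-fold and their inhibitor Timp1 41.4-fold. Timp4 was at -1.52 and did not pass. Across fibroblast and niche genes 24 of 30 rose and 0 fell. Grem1, a BMP antagonist of crypt-base fibroblasts, was at 72.9, 56.6 and 89.6 CPM without DSS and 1105, 829.8 and 997 CPM with it (log2 fold change 3.74, SE 0.22, edgeR adjusted p = 2.11e-06), and the R-spondins Rspo1 and Rspo3, which sustain stem cells, rose by 2.92 and 2.76, as did activin A (Inhba, 5.38).

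In the endothelium 24 of 24 genes rose. P-selectin (Selp), which captures leukocytes, was at 0.976, 0.597 and 0.945 CPM without DSS and 54.5, 47.7 and 77.2 CPM with it, 70.8-fold higher (log2 fold change 6.14, SE 0.28, edgeR adjusted p = 7.05e-07). Angpt2, which destabilises vessels, rose by 4.24 and the pan-endothelial Pecam1 by 2.18. Smooth muscle genes gave 3 rises, close to the 14.9% of all genes tested, and 0 falls among 20 (2 falls without untreated replicate 1 and 1 without DSS replicate 3). Acta2 was at 632, 719 and 788 CPM without DSS and 764, 761 and 749.7 CPM with it, with overlapping groups (log2 fold change 0.09, SE 0.14, edgeR adjusted p = 0.674), and Myh11 at 0.27, while the calcium channel Cacna1c rose 4.01-fold. Enteric neuron and glia genes rose in 16 of 21 cases, among them glial fibrillary acidic protein (Gfap) at 3.53, 3.65 and 1.95 CPM without DSS and 24.5, 19.1 and 42.4 CPM with it (log2 fold change 3.23, SE 0.35, edgeR adjusted p = 8.47e-05). Ano1, the channel of pacemaker cells that epithelium also expresses, fell by 1.65.

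**Figure D4:**
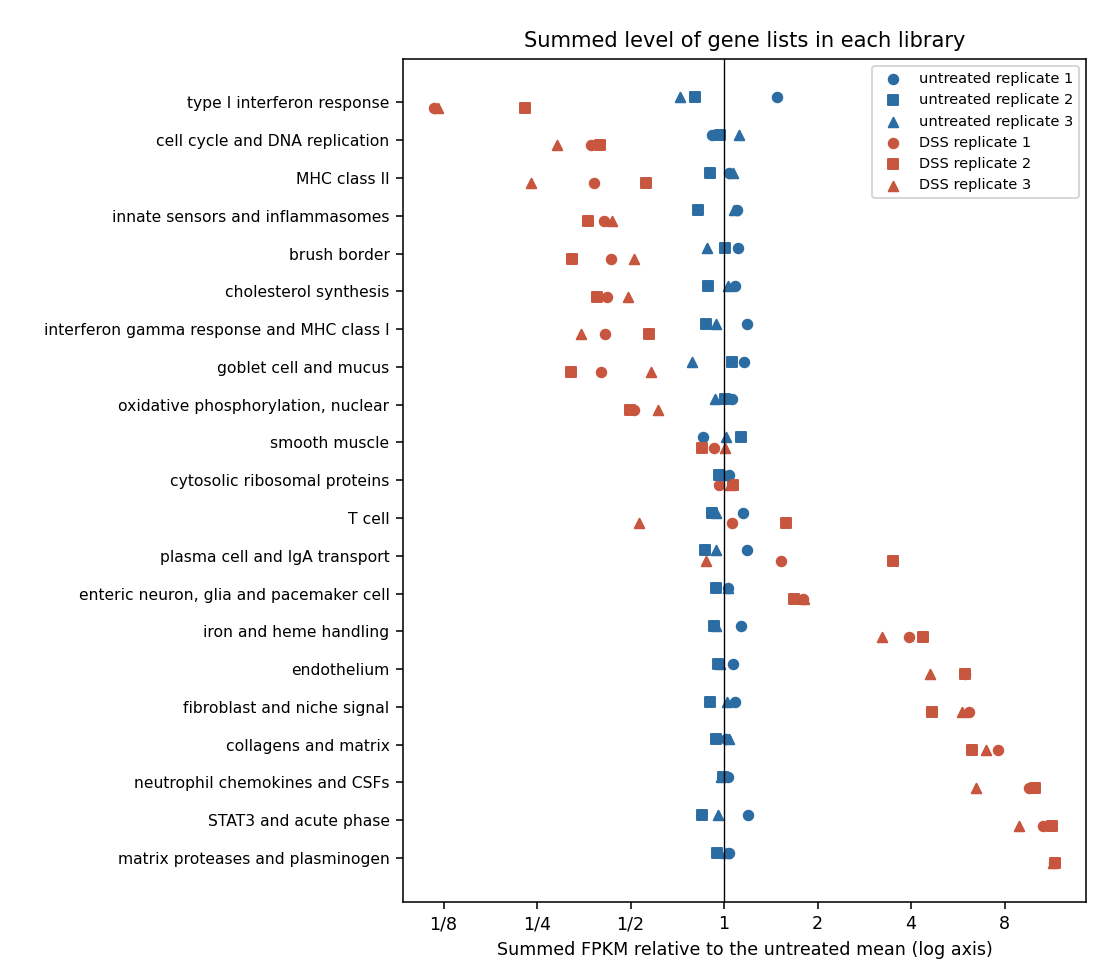
Summed FPKM of 21 gene lists in each of 6 libraries, divided by the mean of the untreated libraries (log axis, blue for untreated, red for DSS, 1 marker shape per replicate number). The colitic libraries of the matrix protease list lie between 1460 and 1481 FPKM against 121 to 132 FPKM, whereas those of the plasma cell list range from 4662 to 18600 FPKM and overlap the untreated ones.

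Outside the lists, the most abundant genes that fell included the desaturase Scd2 at 3197, 2262 and 2875 CPM without DSS and 336, 339 and 524 CPM with it, 6.95-fold lower (log2 fold change -2.80, SE 0.23, edgeR adjusted p = 1.53e-05), the mitochondrial creatine kinase Ckmt1 (-2.48), the selenium-binding protein Selenbp1 (-2.32) and the mitochondrial ribosomal RNA mt-Rnr2 (-1.32). Among abundant rises, Igfbp5, a binding protein of insulin-like growth factors, was at 73, 102 and 95.2 CPM without DSS and 4779, 3055 and 4670 CPM with it, 46.4-fold higher (log2 fold change 5.53, SE 0.25, edgeR adjusted p = 7.05e-07), and Igfbp7 rose by 2.90. The antibody variable gene Igkv3-4 was at 1.8, 4.38 and 14 CPM without DSS and 84.7, 638 and 14.4 CPM with it, with DSS replicate 2 far above the rest, and 4 of the 10 most abundant rises by the rule were antibody variable genes. The calls of Ighv14-4, Igkv3-4 and Iglv1 were lost with limma, and that of Ighv14-4 also with all 12 libraries in 1 fit. Iglv1 was also lost without untreated replicate 1, untreated replicate 2, untreated replicate 3 or DSS replicate 2.

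**Figure D5:**
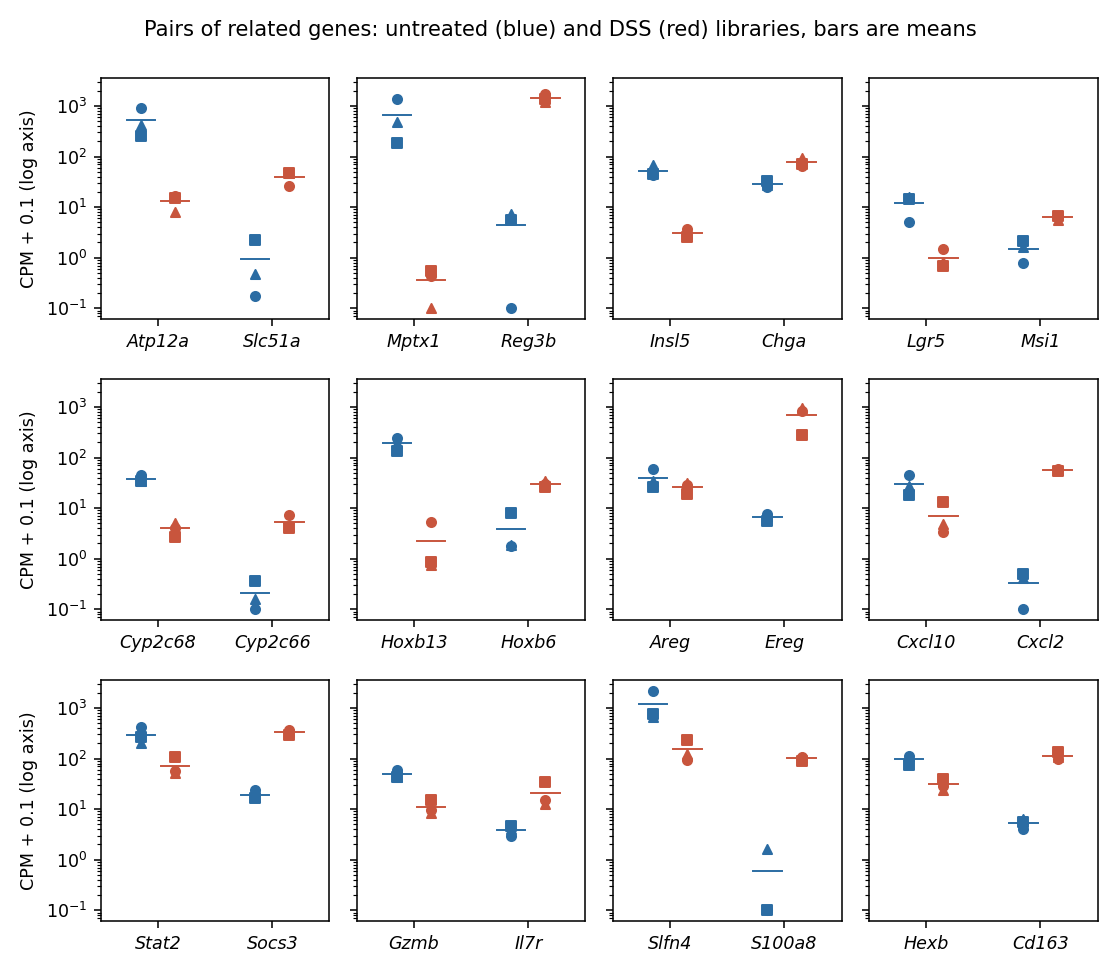
CPM plus 0.1 (log axis) of 12 pairs of related genes in the 3 untreated (blue) and 3 DSS libraries (red), 1 marker shape per replicate number, with bars at the group means. The pairs were chosen after their values were seen: Mptx1 fell where Reg3b rose, Cxcl10 fell where Cxcl2 rose, and Areg overlapped where Ereg did not.

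Other motifs were searched in the same promoters on both strands. AP-1 sites (TGANTCA) were present in 7.15% of promoters of genes called higher and 7.56% of those called lower, against 5.96% of all tested, and in 8 of 22 promoters of the matrix protease list. HNF4 sites (CAAAGTCCA) were in 12 promoters of genes called lower (0.825%) and 14 of genes called higher (0.453%), against 0.429% of all tested. HNF1 sites (GTTAAT, 1 base of any kind and ATT) were in 9 promoters of genes called lower (0.619%) and 5 of genes called higher (0.162%), against 0.286% of all tested. CDX sites (TTTATGG) were in 32 promoters of genes called lower (2.2%) and 60 of genes called higher (1.94%), against 1.94% of all tested. The table covered 13842 of 24102 genes tested.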

How the data were processed

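RNA sequencing of the colon of 6 mice was analysed, with 3 untreated and 3 colitic libraries that the sample titles assign to their groups. The authors deposited whole-number counts per gene and FPKM (counts divided by gene length and library total) on GRCm38, and the submitters' processing notes name CASAVA 1.8, fastp, HISAT2 2.0.5, featureCounts 1.5.0-p3 and DESeq2 1.20.0. The use of strand in counting is not given in the sources used here, so overlapping and antisense genes may share reads, as may near-identical copies. The deposited table also holds group means, log2 fold changes, p-values and adjusted p-values of the authors' own comparisons, and none of these was used. The 6 Tmem173iΔmye libraries entered only the filter on low values and 1 alternative.

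The table lists 54532 genes, and the 24102 that reached 0.1 FPKM in 3 or more of the 12 libraries were tested. Counts were fitted with edgeR 4.0.16 in R 4.3.3 (quasi-likelihood test, TMM scaling, only the 6 libraries), with Benjamini-Hochberg adjustment over all genes tested. Called genes had an adjusted p below 0.05 and a log2 fold change of 1 or more in either direction. SEs were obtained as the absolute log2 fold change over the root of the F statistic. Folds of single genes without log2 are the fitted log2 fold changes put on a linear scale. Those given as "at least" against the floor are from mean CPM, and summed levels are sums of FPKM. A library with at most 3 counts of a gene was taken as at the floor, and folds against such a group are lower bounds, which cover counting error only. The fit was tested on simulated data beforehand, and the outcome is not reported here. Library depth was 13824940 to 18718915 counts.

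The 56 gene lists (48 of cell types and pathways, 8 that check for other tissue, sex and handling), the comparison and the rule for named genes were chosen with earlier results of these data known. The rule took the first 2 genes of each list, up to 3 with the largest change among called members whose FPKM averaged 1 or more and whose groups did not overlap, 1 in the other direction and the most abundant member, and outside the lists the 10 most abundant called falls and rises. Other genes were named after their values were seen. Of 1302 distinct members, 1268 passed the filter. Promoters came from a RefSeq table (GRCm38.p6) and were matched by Ensembl identifier. Where no listed identifier was among the genes tested, a symbol held by only 1 tested gene was used. Alternatives were other scalings, DESeq2 1.42.0, limma 3.58.1 on log2(FPKM + 0.1), other filters, thresholds and samples, a replicate block, and leaving out each library. A few genes are not reported here.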

Additional observations from a re-analysis of the deposited data

How the results depend on the processing

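Counts of called genes under other scalings, tools, filters and fits stayed within 1.5 times of the 5422 calls with TMM and edgeR, with 5428 for relative log expression size factors, 5325 for DESeq2, 5105 for limma and 3749 of 14683 genes with a mean FPKM of at least 1. Dropping the fold threshold gave 8544 calls, of which 3855 were lower. No call reversed its direction under the 16 alternatives. Dropping the fold threshold or the adjustment of p reused the main fit, so neither could lose or reverse a call. Leaving out 1 library gave 4761 to 5568 calls, 3061 to 3610 higher and 1617 to 1958 lower. Of 235 calls among the genes named by rule, 0 to 15 were lost in any one alternative. Xenobiotic rises were 10 without a filter and 2 with all 12 libraries in 1 fit, against 6. Cytotoxic falls were 3 with all 12 libraries, against 6, and the call of Gzma was lost there. Plasma cell rises were 4 with limma, against 9. With library totals alone, falls were 4 against 9 for junctions, 1 against 3 for tuft cells and for the clock, 0 against 2 for iron and heme, 1 against 2 for resident macrophages and for dendritic cells, and 0 against 1 for B cells, whose rises were 2 against 1.

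Whether the replicate numbers pair the mice is not given in the sources used here. Deviations from the group means of same-numbered libraries correlated at -0.06, -0.12 and -0.15, and those of differently numbered ones at -0.07 to 0.17. Centred on only 3 libraries per group, such values cannot decide whether mice were paired. A fit with the replicate number as a block called 4939 genes, 3260 higher and 1679 lower.

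Limits follow from 3 mice per group and bulk tissue. Genes near the floor of 3 counts, such as cytokines, have no upper limit to their fold. Untreated replicate 3 differed from the other 5 libraries in sex-linked genes and from the other 2 untreated libraries in pancreas RNA. The position along the colon of the tissue used for RNA and its time of collection are not in the sources used here. Summed FPKM of a list rests on its most abundant members.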

Other observations

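Lists of other tissues and of handling were read as values outside the comparison. Adipocyte genes summed to 7.51, 65.5 and 97.8 FPKM in untreated and 81.5, 94.7 and 56.8 FPKM in colitic libraries, so untreated replicate 1 held the least, and adiponectin (Adipoq) was at a log2 fold change of -0.22. Fabp4, a fatty acid binding protein that adipocytes and capillary endothelium both express, rose by 2.38 with colitic values all above untreated ones. Skeletal muscle genes summed to between 5.36 and 6.87 FPKM and squamous epithelium genes to between 2.83 and 4.72 FPKM over the 6 libraries, with overlapping groups for both.

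Immediate early genes, which tissue handling can induce, went in different directions. Dusp1, a MAP kinase phosphatase, rose by 3.02 and Egr1 by 2.56, Atf3, a stress-induced factor, fell by 1.95, and Fos was at -0.94 with overlapping groups. DSS replicate 1 had the highest sum of the list, 659 FPKM, against 302 and 351 FPKM in the other colitic libraries and 228 to 325 FPKM in the untreated ones. The part of handling in these values was not tested.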
